A study of Arabidopsis thaliana with 12 samples.

Results

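In root meristems of Arabidopsis thaliana, 56 genes had a lower level than the control after 1 h, 2 h and 4 h of DOF2.1 induction. They were chosen from 28775 loci by a rule on the counts themselves. CPM is the count of a locus scaled by the library total, and 17491 loci had a mean of at least 2 CPM over the 12 libraries. A member had a log2 difference from the control, computed on group means with 0.5 CPM added, of -0.7 or less at each of the 3 times. Its highest CPM among the 9 induced libraries also lay below its lowest CPM among the 3 control libraries. The comparison of induced and control libraries therefore chose the members, and those differences are given as a description. Where test calls of members against the control are printed, the rule largely fixed them and nothing is read from them.

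All libraries came from Col-0 seedlings carrying pRPS5A::DOF2.1-GR, a construct with the RPS5A promoter, which works mainly where cells divide. It makes DOF2.1, a DNA-binding regulator, as a fusion with part of the glucocorticoid receptor. GR fusions enter the nucleus once their ligand dexamethasone (DEX), a steroid drug, is present. Seedlings were 5 days old, grown at 22 °C, and 300 root tips were pooled per sample. The 4 groups, each of 3 biological repeats, were 10 µM DEX for 1 h, for 2 h and for 4 h, and a control at 1 h. The construct was present in every group, and the labels do not say whether control seedlings were transferred. Elapsed time, transfer and DEX itself cannot be told apart from DOF2.1 activity in these groups, because neither a later control nor DEX-treated plants lacking the construct were analysed here. The same 3 control libraries entered the difference at each time.

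Library totals ran from 14142082 to 17522834 counts. The summed level of 4 meristem and stem cell niche markers was 67.8 to 73.3 CPM in the control and 54.6 to 61.9, 62.5 to 64.6 and 62.6 to 67.5 CPM at 1 h, 2 h and 4 h. The sum of every DEX library lay below the controls, but the 4 markers did not move alike. At these times the log2 differences from the control were -0.29, -1.39 and -1.91 for WOX5 and -0.17, 0.27 and 0.37 for the B-type cyclin gene AT4G37490. Those of PLT1 and PLT2 lay between -0.33 and -0.21. The sum of 3 photosynthesis genes of the shoot was between 1.77 and 4.25 CPM in all libraries. DOF2.1 counts, in which the native gene and the construct were not separated, lay at 80.5 to 89.7 CPM in the control and at 43.1 to 76.4 CPM under DEX. Replicates 1 and 3 of DEX 1 h differed most among replicate pairs, with a median absolute log2 difference of 0.21 per locus against 0.11 for the closest pair.

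Several members belong to pathways well studied in the root tip. In the epidermis, a MYB protein, WEREWOLF, acts together with the bHLH proteins GLABRA3 and ENHANCER OF GLABRA3 and the WD40 protein TTG1 to give non-hair cells, while the bHLH protein RHD6 promotes root hair initiation. Auxin is carried through the root tip by PIN efflux carriers, whose position in the membrane depends on phosphorylation by kinases such as PINOID, and GH3 enzymes join auxin to amino acids. PERIANTHIA (PAN) is a TGA-type bZIP factor known for setting floral organ number, and BABY BOOM (BBM) is an AP2 factor of the PLETHORA family that acts in the root stem cell niche.

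The upstream sequences of the 4 members with the strongest lowering at their least lowered time are shown first, because DOF proteins recognise a core written AAAG. Each is the 250 bases before the annotated gene start, read 5′ to 3′ on the gene's strand from RefSeq's assembly TAIR10.1, and capitals mark AAAG or its reverse complement CTTT. They belong to PAN (chr1:25772651-25772900, minus strand), to MYB66, the WEREWOLF gene (chr5:4764835-4765084, minus strand), to AHL18, which encodes an AT-hook DNA-binding protein (chr3:22492561-22492810, plus strand), and to AT3G14540, annotated as a terpenoid cyclase (chr3:4884013-4884262, minus strand).
PAN: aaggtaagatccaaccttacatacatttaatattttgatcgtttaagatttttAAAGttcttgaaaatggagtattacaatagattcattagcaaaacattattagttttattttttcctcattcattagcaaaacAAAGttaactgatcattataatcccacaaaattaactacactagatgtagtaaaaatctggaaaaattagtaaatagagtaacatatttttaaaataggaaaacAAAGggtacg
MYB66: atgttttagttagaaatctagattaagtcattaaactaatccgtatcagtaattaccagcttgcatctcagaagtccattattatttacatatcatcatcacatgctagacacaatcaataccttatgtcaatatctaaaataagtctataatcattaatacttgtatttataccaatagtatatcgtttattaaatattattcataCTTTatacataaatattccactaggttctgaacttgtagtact
AHL18: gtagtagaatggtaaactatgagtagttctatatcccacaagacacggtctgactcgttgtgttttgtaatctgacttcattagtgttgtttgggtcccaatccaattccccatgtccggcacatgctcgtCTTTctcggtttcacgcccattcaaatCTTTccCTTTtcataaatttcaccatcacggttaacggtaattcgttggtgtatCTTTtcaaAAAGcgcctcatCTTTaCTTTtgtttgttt
AT3G14540: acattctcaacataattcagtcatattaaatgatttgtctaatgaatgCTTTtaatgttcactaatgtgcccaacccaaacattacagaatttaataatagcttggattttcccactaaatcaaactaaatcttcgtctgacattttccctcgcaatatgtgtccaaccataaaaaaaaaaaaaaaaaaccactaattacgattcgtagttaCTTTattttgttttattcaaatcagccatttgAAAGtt

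Matches to AAAG on either strand numbered 3 in the PAN window, 1 in that of MYB66, 7 in that of AHL18 and 3 in that of AT3G14540. Such a match was present in 98.2% of the 56 members' windows and in 98% of the windows of 19632 tested loci, with a median of 4 per window in both. The longer AAAAAG, which contains AAAG, occurred in 35.7% of members and 52.9% of all windows. The auxin response element core TGTCTC was present in 17.9% of members and 10.6% of all windows, and TGACG, the core bound by TGA factors, in 23.2% and 19.3%. GGCCCA was found in 1 member, or 1.79%, against 16.6% of all windows. The remaining motifs searched on both strands were CACGTG, in 8.93% of members and 7.28% of all windows, AAATATCT, in 7.14% and 4.79%, TTGAC, in 46.4% and 45.3%, and AGATT, in 67.9% and 62.5%. These windows had a median GC content of 29.2% in members and 31.2% in all tested loci.

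The lowering had nearly the same middle value at each time. Members' levels had a median of 47.2% of the control mean at 1 h, 43.8% at 2 h and 44.9% at 4 h, and the median log2 difference was -1.03, -1.11 and -1.11. The most lowered member reached -1.92 at 1 h (AHL18), -2.34 at 2 h (PAN) and -3.0 at 4 h (PAN). For 13 members the lowest group mean was that of 1 h, for 19 that of 2 h and for 24 that of 4 h. The ratio of the lowest control library to the highest DEX library had a median of 1.54 and ran from 1.08 for the subtilase gene SBT1.3 to 3.37 for PAN.

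**Figure D1:**
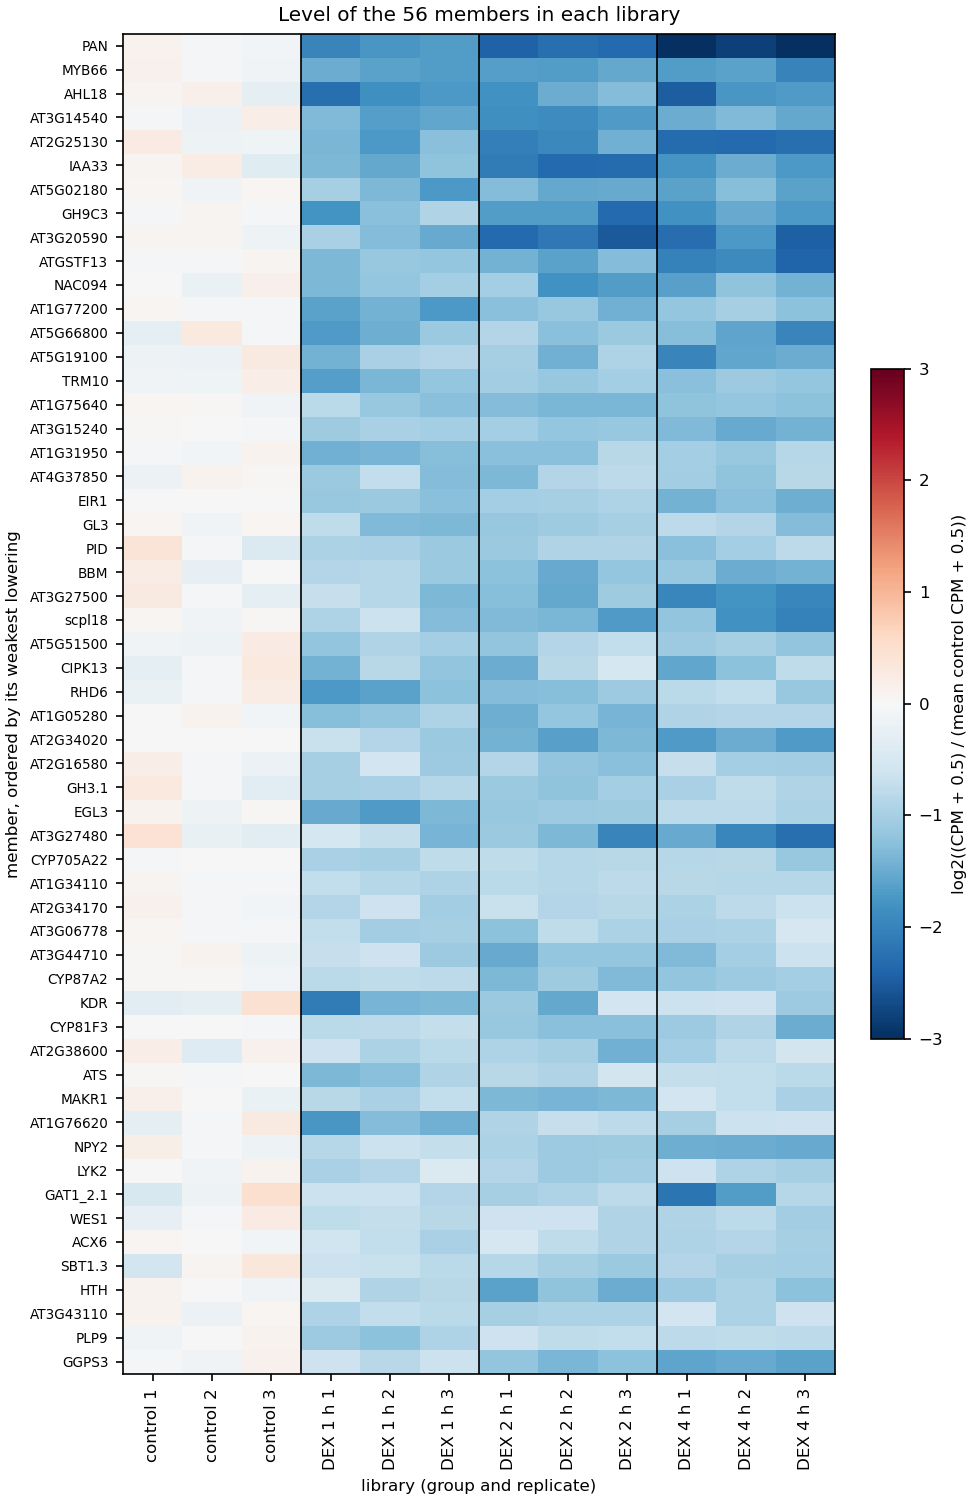
Colour shows the log2 ratio of each member's CPM, with 0.5 added, to its control mean, in the 12 libraries (columns), with the 56 members (rows) ordered by their least lowered time. The 3 control columns are near white and the 9 DEX columns are blue in every row, which the rule required; PAN is the darkest row.

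In each library the median of the 56 members was close to that of its replicates. It lay between -0.05 and 0.04 in the controls, between -1.10 and -0.98 at 1 h, between -1.18 and -1.12 at 2 h and between -1.17 and -1.09 at 4 h, as log2 ratios to the control mean. Lowering at all 3 times with no overlap was seen in 0.32% of the loci above the CPM floor, and 6.45% of those loci had all 9 DEX libraries below all 3 controls whatever the size of the difference. In edgeR's quasi-likelihood test 54 members were called lower at 1 h, where 4.59% of tested loci were, 55 at 2 h, where 18.5% were, and 56 at 4 h, where 25.6% were, which the rule largely fixed. GAT1_2.1 was not called at 1 h or 2 h and the C1-domain gene AT3G27480 not at 1 h.

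At the edge of the rule, the members with the weakest lowering were the prenyl diphosphate synthase gene GGPS3, with -0.70 at 1 h, PLP9, which encodes a patatin-like protein, with -0.70 at 2 h, and the uncharacterised AT3G43110, with -0.70 at 4 h. The nearest loci outside it were AT2G03830 at -0.69, AT3G51410 at -0.69 and AT5G24900 at -0.69 for their least lowered time. A further 4 loci had the fold but overlapped with the control. Control levels of members ran from 3.93 to 321 CPM with a median of 17.1, against 21.2 over all loci above the floor, and 20 members were below 10 CPM in the control. Per kilobase of transcript, the control level was highest for EIR1, at 108 CPM per kilobase, and lowest for SBT1.3, at 1.37.

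The transcription factor gene PAN was the most lowered member at 2 h and 4 h, after AHL18 at 1 h, and went on falling. Its level was 10.7, 9.61 and 9.22 CPM in the control libraries, 2.13, 2.57 and 2.74 CPM at 1 h, 1.41, 1.66 and 1.56 CPM at 2 h and 0.707, 0.991 and 0.683 CPM at 4 h. No library of a later time reached the lowest library of the time before, so the 4 groups were fully separated. Counts were low, at 10, 16 and 10 in the 4 h libraries. The steps of PAN from 1 h to 2 h and from 2 h to 4 h were called, but each call was lost in 7 alternatives, DESeq2 among them. Mean levels were 25.2%, 15.7% and 8.07% of the control at the 3 times. Between 1 h and 4 h on DEX the log2 level fell by 1.54 ± 0.23 (SE; adjusted p = 6.04e-05 in edgeR's quasi-likelihood test). PAN was the only one of 10 TGA bZIP genes to meet the rule. The median log2 fold change of these 10 was 0.06 at 1 h, -0.06 at 2 h and -0.06 at 4 h against the control. With PAN included, 1, 3 and 2 of them were called lower, where 4.59%, 18.5% and 25.6% of tested loci were. Called higher were 1, 0 and 2, and the share of all loci called higher is not given here.

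Regulators of epidermal cell fate formed a group of 4 members, which encode the 3 DNA-binding partners of non-hair fate and the root hair factor RHD6. MYB66, also known as WEREWOLF, was at 34.3, 30.4 and 28.9 CPM in the control, 10.8, 9.93 and 9.44 CPM at 1 h, 9.52, 9.40 and 10.4 CPM at 2 h and 9.40, 9.97 and 7.38 CPM at 4 h. Every DEX library held less than the lowest control by a factor of at least 2.67, and the DEX groups overlapped each other. Its change from 1 h to 4 h on DEX, -0.08 ± 0.12 on the log2 scale, was not called.

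GL3, which encodes the bHLH protein GLABRA3, was at 19.7, 17.6 and 19.7 CPM in the control, 11.1, 7.25 and 7.17 CPM at 1 h, 8.41, 8.83 and 9.32 CPM at 2 h and 10.8, 10.2 and 7.38 CPM at 4 h. The 3 DEX groups of GL3 overlapped. Its close relative EGL3 had 31.1, 26.2 and 29.4 CPM in the control, 9.84, 8.62 and 11 CPM at 1 h, 12.8, 13.2 and 13.6 CPM at 2 h and 16.6, 16.5 and 14.7 CPM at 4 h. Here the DEX groups did not overlap, and each later time was higher. EGL3 rose by 0.78 ± 0.11 on the log2 scale from 1 h to 4 h (edgeR adjusted p = 4.17e-05), and 0.51 ± 0.11 of this lay between 1 h and 2 h (edgeR adjusted p = 0.0033). It was still at 55.1% of the control at 4 h, having been at 34.0% at 1 h.

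RHD6 followed the course of EGL3. Its levels were 28.2, 30.9 and 37.4 CPM in the control, 9.38, 10.2 and 13.3 CPM at 1 h, 12.8, 13.0 and 14.9 CPM at 2 h and 18.3, 19.1 and 14.3 CPM at 4 h. Neighbouring DEX times overlapped, while all 4 h libraries lay above all 1 h libraries. The rise from 1 h to 4 h was 0.74 ± 0.16 (edgeR adjusted p = 0.00185), which took the mean from 34.1% to 53.6% of the control. The deposited counts of RHD6 were not whole numbers.

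Most other genes of the epidermal pathway lay nearer to the control. On a list of 16 epidermal genes drawn up after the members had been seen, 12 were not members. Of these 12, only the root hair regulator RSL2 had all DEX libraries below the controls, as had 6.45% of loci above the CPM floor. TRY and ETC1, also among the 12, were below this floor. The log2 differences of RSL2 were -0.38, -0.51 and -0.44. The median of the 12 was -0.06 at 1 h, -0.24 at 2 h and -0.08 at 4 h. TTG1 lay at -0.06, -0.11 and -0.25, GL2, the homeobox gene downstream of the MYB and bHLH proteins, at -0.11, -0.33 and -0.26, and CPC, the mobile MYB-related gene that opposes WEREWOLF, at -0.01, -0.23 and -0.06. TTG2 differed by -0.06 at 1 h, -0.82 at 2 h and -1.02 at 4 h. RSL1, a relative of RHD6, differed by -0.79, 0.24 and 0.46.

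Levels of cell type markers were summed, beginning with those of mature root hairs. The sum of EXPA7 and COBL9 ran from 81.5 to 101.6 CPM in the control, 88.1 to 94.0 CPM at 1 h, 69.8 to 75.4 CPM at 2 h and 63.1 to 85.3 CPM at 4 h. On the log2 scale EXPA7 differed from the control by 0.19, -0.0003 and 0.16 at 1 h, 2 h and 4 h, and COBL9 by -0.14, -0.60 and -0.75. The sum of 3 root cap markers was 45.1 to 53.1 CPM in the control, and 35.2 to 37.1, 32.7 to 38.4 and 41.1 to 42.7 CPM at the 3 times. The sum of 4 ground tissue markers was 172.8 to 181.8 CPM in the control, then 127.8 to 136.2, 137.6 to 148.8 and 109.1 to 121.9 CPM. These 4 did not move alike. Their log2 differences were -0.05, -0.33 and -0.48 for SHR and -0.54, -0.42 and -0.80 for SCR. Those of JKD were -0.31, 0.07 and -0.27, and those of MGP -1.23, -0.50 and -0.80. The endodermis marker CASP1 differed by 0.11, -0.21 and 0.10. The sums of vascular markers were lower from 2 h on, with XCP1, CESA7, SEOR1 and SUC2 lower at both later times. The xylem gene VND7 differed from the control by 0.29 at 2 h and -0.02 at 4 h on the log2 scale. The phloem gene APL differed by -0.14 and -0.26. The sum of 3 phloem markers was 80.4 to 92.5 CPM in the control, then 74.5 to 101.4, 50.4 to 57.75 and 36.4 to 41.1 CPM, and that of 3 xylem markers 123.9 to 147.9 CPM, then 113.3 to 156.5, 87.8 to 100 and 87.3 to 92.45 CPM. In whole root tips fewer cells of a type and less RNA per cell cannot be told apart, and the part of these marker shifts in the members' levels was not tested.

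**Figure D2:**
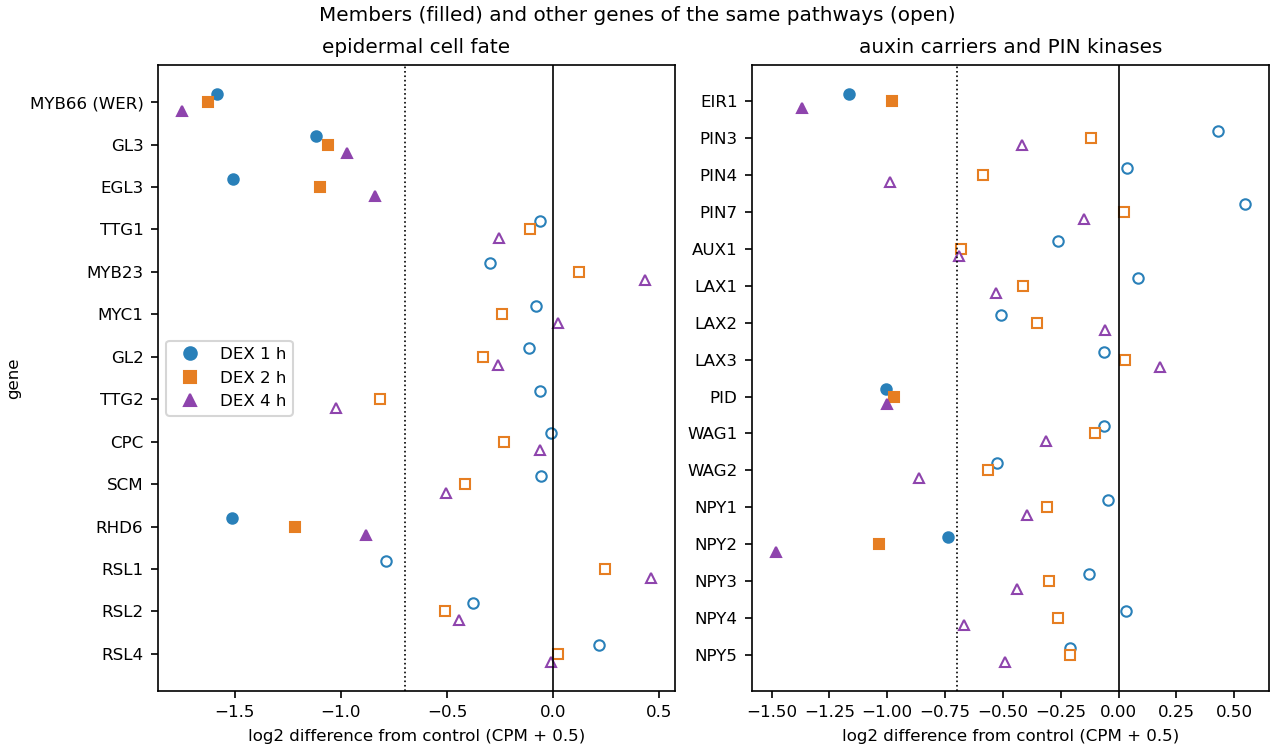
Log2 difference from the control (horizontal axis, CPM with 0.5 added) for genes of the epidermal and auxin transport lists above the CPM floor, at 1 h (circles), 2 h (squares) and 4 h (triangles); filled symbols are members and the dotted line is the rule's threshold of -0.7. MYB66, GL3, EGL3, RHD6, EIR1, PID and NPY2 lie to the left of the line at all 3 times, which made them members, while TTG1, GL2 and CPC stay near 0.

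Auxin transport was represented by a carrier, a kinase and an NPH3-family protein. EIR1, which encodes the efflux carrier PIN2 needed for root gravitropism, was the most abundant member per kilobase, at 323, 319 and 320 CPM in the control. It was at 146, 147 and 134 CPM at 1 h, 159, 160 and 168 CPM at 2 h and 120, 135 and 116 CPM at 4 h. The 2 h libraries of EIR1 lay above all other DEX libraries. It rose by 0.27 ± 0.07 from 1 h to 2 h (edgeR adjusted p = 0.00621) and fell by 0.38 ± 0.07 from 2 h to 4 h (edgeR adjusted p = 0.00317), both on the log2 scale.

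PID, which encodes the kinase PINOID, was at 23.7, 17.5 and 13.2 CPM in the control, 9.21, 8.96 and 8.10 CPM at 1 h, 8.17, 9.47 and 9.39 CPM at 2 h and 7.35, 8.73 and 10.3 CPM at 4 h. The control libraries of PID were spread, and the lowest of them was 1.28 times the highest DEX library. NPY2 encodes an NPH3-family protein of the kind that acts with PINOID. It was at 96.3, 81.6 and 76.3 CPM in the control, 46.5, 53.9 and 51.3 CPM at 1 h, 43.8, 39.5 and 40.1 CPM at 2 h and 30.5, 29.9 and 29.6 CPM at 4 h. Each later time of NPY2 lay below the one before, without overlap. Its fall from 1 h to 4 h was called (log2 fold change -0.67 ± 0.09, edgeR adjusted p = 3.53e-05), as was the step from 2 h to 4 h (-0.45 ± 0.09, edgeR adjusted p = 0.0108), though the latter not without DEX 2 h replicate 1 (-0.40, edgeR adjusted p = 0.0672).

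Related transport genes lay on both sides of the control at 1 h. At 2 h and 4 h they lay below it except for LAX3 (0.03 and 0.18) and, at 2 h, PIN7 (0.02). Of 16 genes on a list of carriers and their kinases, also drawn up after the members had been seen, 13 were not members. AUX1, WAG2 and NPY5 among these had all DEX libraries below the controls, as had 6.45% of loci above the CPM floor. PIN3 and PIN7 differed by 0.43 and 0.55 at 1 h and by -0.42 and -0.15 at 4 h. The median of the 13 was -0.06, -0.30 and -0.44.

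Auxin response and conjugation genes were IAA33, AT2G16580, GH3.1 and WES1. IAA33, an atypical member of the Aux/IAA family of auxin response repressors, was at 7.96, 8.72 and 5.69 CPM in the control, 2.65, 2.23 and 2.97 CPM at 1 h, 1.35, 1.09 and 1.11 CPM at 2 h and 1.84, 2.35 and 1.91 CPM at 4 h. The 2 h libraries were the lowest. It fell by 1.06 ± 0.24 from 1 h to 2 h (edgeR adjusted p = 0.00389), and the difference of 0.79 ± 0.25 from 2 h to 4 h was not called (edgeR adjusted p = 0.0683).

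GH3.1 stood at 12.5, 9.73 and 7.98 CPM in the control and between 4.09 and 5.76 CPM in all DEX libraries. WES1, the GH3.5 gene, stood at 19.4, 22.6 and 27.5 CPM and between 10.9 and 14.9 CPM. AT2G16580, of the SAUR family of small auxin-responsive genes, had 8.66 to 11.4 CPM in the control and 3.85 to 6.45 CPM under DEX. None of these 3 was called in a step between DEX times. Among the 6 other GH3 genes listed after the members had been seen, GH3.17 alone had all DEX libraries below the controls. Of the 6, GH3.3 and GH3.9 were below the CPM floor and GH3.4 had no counts in any library. The share over all loci above the CPM floor was 6.45%. DFL1, another of the 6, differed by 0.21 at 1 h and by -0.88 and -0.94 at 2 h and 4 h.

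BBM was at 18.1, 12.8 and 15.3 CPM in the control, 8.23, 8.27 and 6.88 CPM at 1 h, 6.32, 5.05 and 6.58 CPM at 2 h and 6.72, 5.20 and 5.47 CPM at 4 h. All DEX libraries lay well under the controls, and the steps between DEX times were not called. A list of 5 relatives of BBM was drawn up after the members had been seen. Of these, PLT1 and PLT2, which maintain the root stem cell niche, had every DEX library below the controls. The share over all loci above the CPM floor was 6.45%. Log2 differences were -0.33, -0.28 and -0.33 for PLT1 and -0.31, -0.23 and -0.21 for PLT2. AIL6 and PLT5 differed by -0.14, -0.24 and -0.29 and by -0.21, -0.48 and -0.25. PLT7, below 1 CPM in every library, differed by 0.57, 0.37 and 0.08, and BBM by -0.94, -1.30 and -1.34.

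Further members annotated to families of transcription factors or DNA-binding proteins were AHL18, NAC094, KDR, the KANADI-family gene ATS, the AP2-type gene AT1G77200 and the bHLH gene AT4G37850. AHL18 was at 7.79, 8.24 and 6.06 CPM in the control, 1.15, 1.71 and 1.86 CPM at 1 h, 1.72, 2.30 and 2.67 CPM at 2 h and 0.919, 1.86 and 1.91 CPM at 4 h. Its DEX groups overlapped. ATS was at 36.3, 34.2 and 35.8 CPM in the control, 13.6, 14.6 and 18.8 CPM at 1 h, 19.5, 18.7 and 24.2 CPM at 2 h and 21.3, 21.1 and 19.9 CPM at 4 h. It rose by 0.48 ± 0.12 from 1 h to 2 h (edgeR adjusted p = 0.00869) and did not pass the test from 2 h to 4 h, where the difference was 0.01 ± 0.12. Without DEX 2 h replicate 3 the first step was 0.37 and was not called (edgeR adjusted p = 0.0557).

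By product names, 8 members (14.3%) were transcription factors or DNA-binding proteins, against 5.36% of tested loci. The names that define this class leave out RHD6, IAA33, ATS, BBM and AT1G77200, and the same words were applied to all loci. These shares describe a chosen list and were not tested. On the fixed lists of cytokinin-activating LOG enzymes, type-A response regulators, vascular regulators, clock genes, touch genes and cell type markers, no gene was a member. LOG3 and LOG4 missed the rule through the CPM floor alone, with means of 1.16 and 1.40 CPM over the 12 libraries. Their log2 differences were -1.23, -1.71 and -1.43 for LOG3 and -0.84, -1.24 and -1.29 for LOG4. All DEX libraries of LOG3, LOG4 and LOG7 lay below the controls. The share over loci above the CPM floor, which LOG3 and LOG4 did not reach, was 6.45%. Other LOG genes differed by 0.38, -1.11 and -1.82 (LOG1), -0.06, -0.87 and 0.15 (LOG2) and 1.28, -0.13 and -0.90 (LOG5). LOG7 differed by -0.23, -1.03 and -1.24, and LOG8 by 0.06, -0.02 and -0.18. LOG6 and LOG9 had means of 0.07 and 0.20 CPM.

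**Figure D3:**
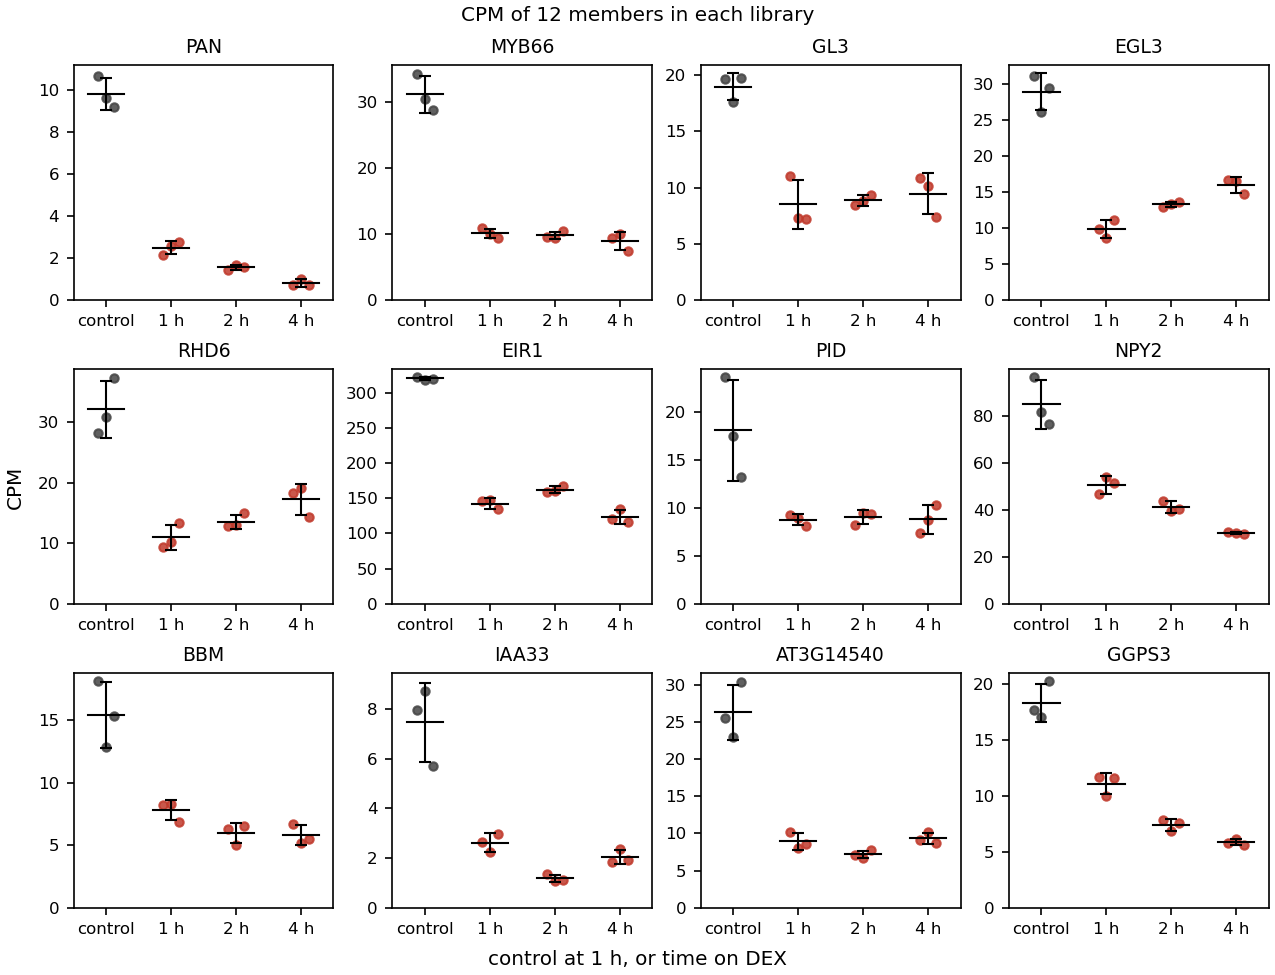
CPM (vertical axis, from 0) of 12 members in each library, by group (horizontal axis: control at 1 h, then 1 h, 2 h and 4 h on DEX); points are libraries, the wide bar is the group mean and the error bar the SD of 3 libraries. PAN, NPY2 and GGPS3 go down from 1 h to 4 h, EGL3 and RHD6 go up, and the 3 DEX groups overlap for MYB66, GL3 and PID.

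Several members encode enzymes of terpenoid and other specialised metabolism. AT3G14540 and GGPS3 lie next to each other on chromosome 3, on the same strand and 550 bases apart in TAIR10.1. AT3G14540 was at 25.5, 23.1 and 30.4 CPM in the control, 10.2, 8.10 and 8.55 CPM at 1 h, 7.03, 6.71 and 7.75 CPM at 2 h and 9.12, 10.2 and 8.74 CPM at 4 h. The neighbour GGPS3 was at 17.7, 17.1 and 20.3 CPM in the control, 11.7, 10.0 and 11.6 CPM at 1 h, 7.83, 6.83 and 7.57 CPM at 2 h and 5.83, 6.15 and 5.65 CPM at 4 h. The time courses of the neighbours differed: GGPS3 fell by 0.83 ± 0.12 from 1 h to 4 h (edgeR adjusted p = 3.84e-05), whereas AT3G14540 changed by 0.15 ± 0.13 and was not called. That the 2 changes differ from each other was not tested. Both have count values that are not whole.

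A second annotated terpenoid cyclase, AT1G31950, was at 109.9, 105.3 and 121.6 CPM in the control, 41.2, 42.6 and 46.2 CPM at 1 h, 47.0, 46.5 and 62.4 CPM at 2 h and 55.6, 50.9 and 61.9 CPM at 4 h. It rose by 0.46 ± 0.11 from 1 h to 4 h (edgeR adjusted p = 0.00309). The cytochrome P450 genes CYP81F3, CYP87A2 and CYP705A22 had control means of 104, 77.7 and 54.3 CPM. Their levels were 58.5%, 57.8% and 53.1% of the control at 1 h, 42.8%, 41.9% and 56.1% at 2 h, and 45.3%, 46.6% and 51.7% at 4 h. From 1 h to 2 h CYP87A2 fell by 0.39 ± 0.08 (edgeR adjusted p = 0.00246) and CYP81F3 by 0.37 ± 0.12 (edgeR adjusted p = 0.0241), the latter not called without replicate 2 or 3 of DEX 1 h or DEX 2 h (-0.38 to -0.31). The glutathione transferase gene ATGSTF13 was at 41.8, 40.5 and 45.3 CPM in the control, 16.5, 19.2 and 18.6 CPM at 1 h, 15.5, 13.8 and 17.1 CPM at 2 h and 9.97, 11 and 7.59 CPM at 4 h. It fell mainly in the last step, by 0.69 ± 0.13 from 2 h to 4 h (edgeR adjusted p = 0.00569).

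Among cell wall genes, GH9C3, a family 9 glycosyl hydrolase, was at 61.6, 66.2 and 60.2 CPM in the control, 17.7, 26.0 and 33.0 CPM at 1 h, 19.3, 19.2 and 12 CPM at 2 h and 17.5, 21.5 and 18.7 CPM at 4 h. The 1 h libraries were the most spread. AT3G20590, annotated as a hydroxyproline-rich glycoprotein, was at 9.25, 9.25 and 7.84 CPM in the control, 4.22, 3.25 and 2.75 CPM at 1 h, 1.33, 1.59 and 1.11 CPM at 2 h and 1.39, 2.29 and 1.20 CPM at 4 h. It had the largest step among members between 1 h and 2 h, a fall of 1.24 ± 0.24 on the log2 scale (edgeR adjusted p = 0.0014). HTH, the HOTHEAD gene, an oxidoreductase known for keeping floral organs from fusing, fell by 0.68 ± 0.14 in the same step (edgeR adjusted p = 0.00234).

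Further members with a high control level were AT3G15240, AT2G34020 and PLP9. AT3G15240, annotated as a WNK-like kinase, was at 116.9, 112.3 and 110.3 CPM in the control, 54.1, 57.1 and 55.5 CPM at 1 h, 55.4, 50.2 and 51.0 CPM at 2 h and 44.8, 39.3 and 41.9 CPM at 4 h. AT2G34020, an EF-hand calcium-binding protein gene, was at 110.8, 112.4 and 112.9 CPM, then at 69.9, 60.5 and 51.6 CPM, 41.7, 35.8 and 43.7 CPM, and 34.2, 39.9 and 34.4 CPM. Both were lower at 4 h than at 1 h without overlap. The changes were -0.32 ± 0.07 for AT3G15240 (edgeR adjusted p = 0.0019) and -0.65 ± 0.09 for AT2G34020 (edgeR adjusted p = 3.55e-05). PLP9 moved the other way, from 52.7, 48.3 and 59.2 CPM at 1 h to 66.1, 66.3 and 65.3 CPM at 4 h, a rise of 0.39 ± 0.09 (edgeR adjusted p = 0.00143).

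The steps between DEX times were tested to ask how the lowering developed, since the control takes no part in them. The rule used the same DEX libraries and capped each DEX level. It thereby limited how far a member could rise between DEX times, but not how far it could fall. The numbers of rises and falls among members are therefore in part set by the rule, and their comparison with all loci is a description. From 1 h to 4 h, 9 members rose and 13 fell, where 24.1% of 19733 tested loci rose and 24.5% fell. Calls in either direction made up 39.3% of members and 48.6% of all tested loci. The median change was -0.05 in members and 0.00595 over all loci. The largest falls after PAN were those of AT3G27480 (-1.32 ± 0.40, edgeR adjusted p = 0.0129), AT3G27500 (-1.03 ± 0.22, edgeR adjusted p = 0.00136) and the ARM-repeat gene AT2G25130 (-0.95 ± 0.23, edgeR adjusted p = 0.0029). The largest rises were those of KDR, a small atypical bHLH gene (1.07 ± 0.36, edgeR adjusted p = 0.0228), AT1G76620, of unknown function (0.93 ± 0.21, edgeR adjusted p = 0.00153), EGL3, RHD6 and AT1G77200 (0.59 ± 0.16, edgeR adjusted p = 0.0064).

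AT3G27480 and AT3G27500 both encode C1-domain proteins and lie 7125 bases apart with 3 annotated loci between them. AT3G27480 was at 6.30, 3.82 and 3.46 CPM in the control, 2.99, 2.57 and 1.40 CPM at 1 h, 1.84, 1.48 and 0.782 CPM at 2 h and 1.27, 0.805 and 0.547 CPM at 4 h. Its call was lost without DEX 1 h replicate 1 (-1.12, edgeR adjusted p = 0.0534) or without DEX 4 h replicate 3 (-1.07, edgeR adjusted p = 0.0643). AT3G27500 was at 10.8, 8.60 and 7.05 CPM in the control, 5.24, 4.68 and 3.15 CPM at 1 h, 3.32, 2.69 and 3.91 CPM at 2 h and 1.91, 2.17 and 1.91 CPM at 4 h. KDR was at 4.40, 4.54 and 7.92 CPM in the control and at 0.921, 1.83 and 1.92 CPM at 1 h, 2.33, 1.60 and 3.59 CPM at 2 h and 3.39, 3.47 and 2.39 CPM at 4 h. The rise of KDR was not called without DEX 1 h replicate 1 (0.78), DEX 4 h replicate 1 (0.99) or DEX 4 h replicate 2 (0.975), and the edgeR adjusted p was then 0.0889, 0.067 and 0.0732.

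**Figure D4:**
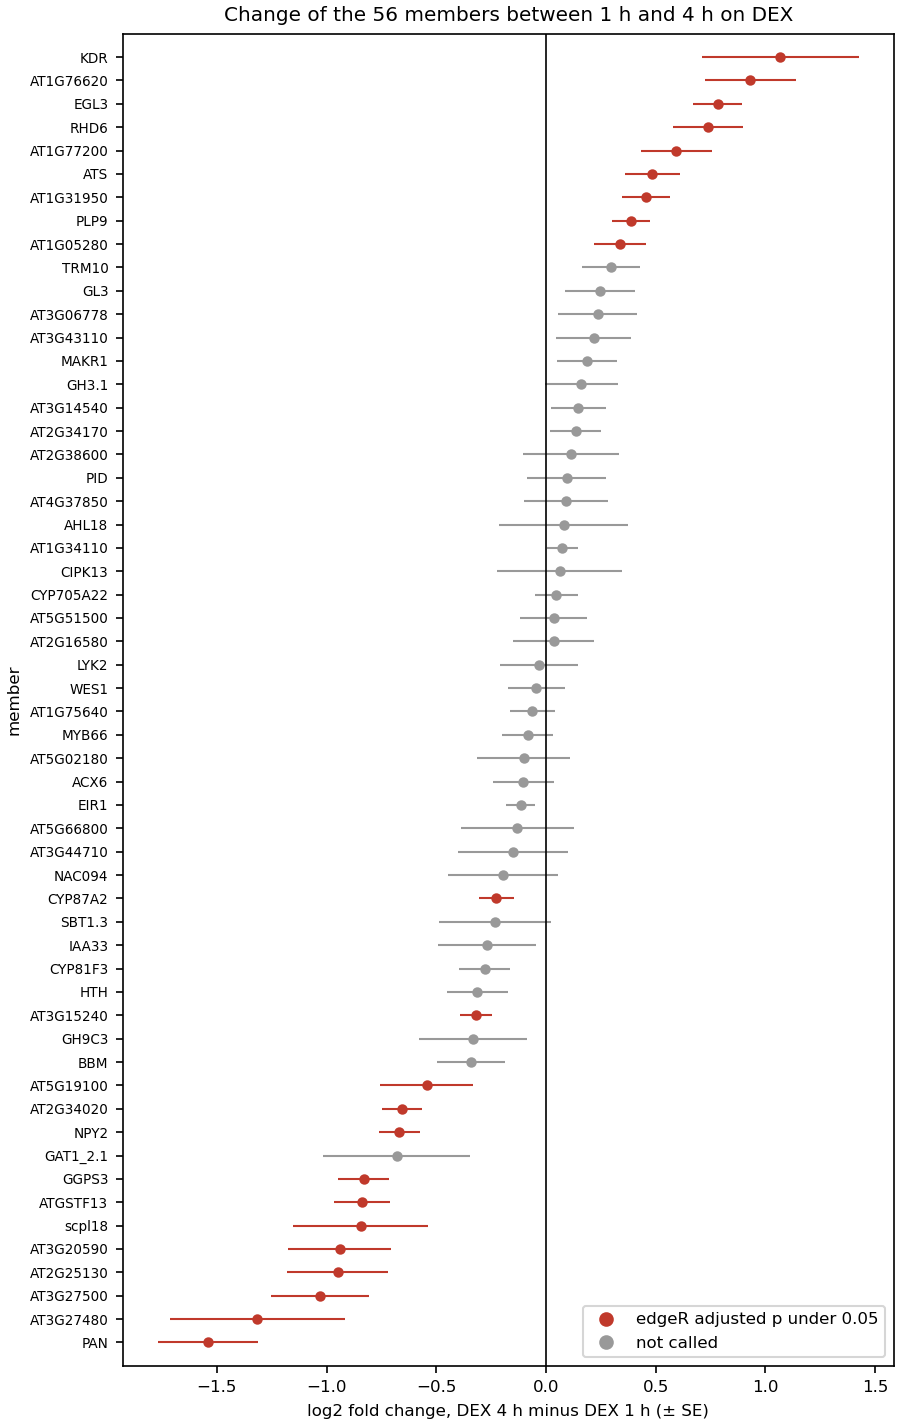
Log2 fold change from 1 h to 4 h on DEX (horizontal axis, with its SE as error bar) for the 56 members (rows, in order of the change); red marks an edgeR adjusted p under 0.05 and grey the others. Changes run from -1.54 for PAN to 1.07 for KDR, with 13 members called lower and 9 higher.

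From 1 h to 2 h, 7 members rose and 9 fell, with 14.9% and 16.3% of tested loci doing so. Calls in either direction made up 28.6% of members and 31.3% of tested loci, with a median change of -0.09 in members and -0.0032 over all loci. Without TMM factors, 5 rose and 11 fell. AT1G76620 rose most, by 0.88 ± 0.21 (edgeR adjusted p = 0.00459), from 1.90, 2.80 and 2.51 CPM at 1 h to 3.81, 4.54 and 4.24 CPM at 2 h. From 2 h to 4 h, 2 members rose and 5 fell, against 3.6% and 3.73% of tested loci. Together these were 12.5% of members and 7.34% of tested loci, and the median change was -0.0095 in members and 0.0061 over all loci. MAKR1, which encodes a membrane-associated kinase regulator, went from 6.02, 5.82 and 6.06 CPM to 10.7, 9.41 and 8 CPM, a rise of 0.66 ± 0.14 (edgeR adjusted p = 0.0126). Its call was lost without DEX 2 h replicate 1 (0.67, edgeR adjusted p = 0.0521) or DEX 4 h replicate 1 (0.54, edgeR adjusted p = 0.0635). The counts of this step depended on single libraries: 0 rose and 2 fell without DEX 2 h replicate 1, 0 rose without DEX 4 h replicate 1, 1 rose without DEX 2 h replicate 3 or DEX 4 h replicate 2, and 1 rose and 3 fell without DEX 4 h replicate 3.

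Signalling members included the leucine-rich repeat receptor kinase genes AT1G75640 and AT1G34110. AT1G75640 was at 28.5 to 32.3 CPM in the control and at 11.7 to 17.5 CPM under DEX, and AT1G34110 at 42.7 to 46.7 CPM and 23.0 to 26.3 CPM. LYK2 lay at 8.87 to 10.4 CPM in the control and at 4.29 to 7.02 CPM under DEX. None of these 3 was called in a step between DEX times. AT5G66800, annotated as like the membrane-associated kinase regulators, was at 7.19 to 10.8 CPM in the control and 1.85 to 4.54 CPM under DEX. TRM10, a TON1-recruiting motif gene, was at 40.4 to 51.1 CPM and 13.6 to 21.6 CPM. Its rise of 0.40 ± 0.13 from 1 h to 2 h (edgeR adjusted p = 0.0281) was lost with library totals (0.33, edgeR adjusted p = 0.0506) and without DEX 1 h replicate 1 or 2 or DEX 2 h replicate 1 or 3 (0.25 to 0.41).

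Protein-degrading enzymes were encoded by AT5G19100, an aspartyl protease gene, by scpl18, a serine carboxypeptidase-like gene, and by SBT1.3. AT5G19100 was at 15.6 to 21.5 CPM in the control and 4.10 to 9.44 CPM under DEX. Levels of scpl18 were 3.94 to 4.52 CPM and 0.683 to 2.57 CPM, and those of SBT1.3 2.56 to 5.13 CPM and 1.56 to 2.36 CPM. AT5G19100 fell from 1 h to 4 h by 0.54 ± 0.21 (edgeR adjusted p = 0.0455), and the call was lost without DEX 1 h replicate 2 or 3 or any of the DEX 4 h replicates (-0.63 to -0.40). The fall of scpl18 by 0.85 ± 0.31 (edgeR adjusted p = 0.0311) was lost without DEX 1 h replicate 1 or 2 or DEX 4 h replicate 2 or 3 (-0.87 to -0.61).

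Other members had lower values with no call between DEX times. AT5G02180, an amino acid transporter gene, was at 6.69 to 7.55 CPM in the control and 1.86 to 3.4 CPM under DEX. AT5G51500, of the pectin methylesterase family, was at 14.7 to 19.5 CPM and 6.91 to 9.65 CPM. ACX6, an acyl-CoA oxidase gene, was at 10.4 to 11.5 CPM and 5.27 to 7.63 CPM. The transcription factor genes NAC094 and AT4G37850 were at 5.61 to 7.30 CPM and 9.03 to 11.1 CPM in the control. Under DEX they were at 1.47 to 2.97 CPM and 3.68 to 5.94 CPM. AT3G06778, AT3G44710, AT2G38600 and AT3G43110, 4 members below 10 CPM in every library, had log2 differences between -1.27 and -0.70. AT1G05280, of unknown function, was at 27.2 to 31.2 CPM in the control and 10.3 to 15.7 CPM under DEX. It is an exception in this group, since it rose by 0.48 ± 0.12 from 2 h to 4 h (edgeR adjusted p = 0.0262), a call lost without DEX 2 h replicate 1 or 3 or any DEX 4 h replicate (0.42 to 0.49).

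The members were spread over the genome, with 15, 9, 14, 5 and 13 on chromosomes 1 to 5. AT2G34170 and the kinase gene CIPK13 overlap by 100 bases on opposite strands, and the strand setting of the counting is not given in the sources used here, so their values are uncertain. In all, 13 members overlap another annotated locus, 12 of them on the opposite strand. The longest overlap with a locus in the files was that of LYK2, which encodes a LysM receptor-like kinase, with AT3G01830, at 2067 bases. Counts departing from whole numbers by more than 0.1 were seen in 12 members, or 21.4%, against 15.7% of loci above the CPM floor. GAT1_2.1, annotated as a glutamine amidotransferase and among those 12, had wide replicates, at 32.3, 40.6 and 62.8 CPM in the control and 9.48, 13.8 and 24.8 CPM at 4 h.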

How the data were processed

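RNA-seq of 12 samples was analysed. The authors deposited expected counts (estimates per locus, in part not whole), which are not scaled for depth. The submitters' processing notes name CASAVA, GSNAP, HTSeq, edgeR and the build TAIR10, without roles or versions, and libraries were made with a stranded mRNA kit per the labels' protocols. Totals were 14142082 to 17522834 counts per library, and low counts limit the precision of members near the CPM floor.

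Counts were rounded and tested with edgeR 4.0.16 in R 4.3.3 (filterByExpr, TMM scaling, robust quasi-likelihood fit to all 12 libraries with group as the only term). Benjamini-Hochberg adjustment covered the 19733 tested loci, with a threshold of 0.05. All 56 members were tested. Log2 fold changes and their SE for steps between DEX times come from this fit, and differences from the control that describe members or listed genes come from CPM with 0.5 added. P-values set a difference against the spread between biological repeats, which was estimated over all 12 libraries with information shared across loci.

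Symbols, neighbours and upstream windows came from RefSeq's TAIR10.1, in which 28009 of 28775 loci and all 56 members were matched by locus tag; coordinates and sequences are those of TAIR10.1. The rule for named genes took the 10 members most lowered at their least lowered time, the 5 with the highest control CPM, the largest called steps (5 per direction from 1 h to 4 h, 3 in the other steps), members on a list, up to 3 per product class and the 3 on each side of the threshold. This gave 42 members, and the other 14 (PID, BBM, GH3.1, WES1 and LYK2 among them) were named after their values were seen. The members, lists and tests were chosen with earlier results of these data known. Alternatives were DESeq2 1.42.0, other scaling and filters, a replicate block and leaving out each library. A gene was left out of the list of auxin carriers and is not reported here.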

Additional observations from a re-analysis of the deposited data

Results flagged for a closer look

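A member is listed here where its lowering at 1 h, 2 h or 4 h differed between times by edgeR's quasi-likelihood test of the step itself (adjusted p under 0.05, 3 libraries a group). Values are log2 fold changes. From 1 h to 4 h the lowering deepened for PAN (-1.54), AT3G27480 (-1.32), AT3G27500 (-1.03), AT2G25130 (-0.95), AT3G20590 (-0.94), scpl18 (-0.85), ATGSTF13 (-0.84), GGPS3 (-0.83), NPY2 (-0.67), AT2G34020 (-0.65), AT5G19100 (-0.54), AT3G15240 (-0.32) and CYP87A2 (-0.23). It shrank for KDR (1.07), AT1G76620 (0.93), EGL3 (0.78), RHD6 (0.74), AT1G77200 (0.59), ATS (0.49), AT1G31950 (0.46), PLP9 (0.39) and AT1G05280 (0.34).

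From 1 h to 2 h it deepened most for AT3G20590 (-1.24), IAA33 (-1.06) and HTH (-0.68) and shrank most for AT1G76620 (0.88), EGL3 (0.51) and ATS (0.48). From 2 h to 4 h it deepened most for PAN (-0.94), ATGSTF13 (-0.69) and NPY2 (-0.45) and shrank for MAKR1 (0.66) and AT1G05280 (0.48).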

How the results depend on the processing

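The rule gave 37 loci with a CPM floor of 5 and 81 without a floor, and 52 to 71 when each library was left out in turn. It gave 52 with TMM-scaled CPM (50 of them members), 44 with a pseudocount of 1 and 60 with overlap allowed. Leaving out each library gave 0 to 2 members higher and 2 to 4 lower from 2 h to 4 h. No other count of members moved by more than 1.5 times. Of 780 recomputed values for 65 single-member steps, 681 kept direction and side of the threshold, 70 lost the call, 10 gained one and 19 changed sign, all 19 for uncalled steps from 1 h to 4 h. With library totals these were AHL18 (-0.0011), AT5G51500 (-0.0501), AT2G16580 (-0.053), CYP705A22 (-0.0372) and AT1G34110 (-0.0129). With each library left out they ranged from -0.17 to 0.0445 for MYB66, -0.12 to 0.33 for AHL18, -0.27 to 0.11 for AT5G02180, -0.14 to 0.0587 for AT1G75640, -0.067 to 0.10 for AT5G51500, -0.11 to 0.23 for AT2G16580 and -0.0093 to 0.15 for CYP705A22. The cause was not tested. Called steps from 1 h to 4 h that were lost in some alternatives were those of AT5G19100, scpl18, AT1G05280, AT3G27480, CYP87A2 and KDR, and the PAN steps from 1 h to 2 h and from 2 h to 4 h were lost in 7 alternatives each, DESeq2 among them.

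The replicate numbers were not taken to pair the samples, because not every same-numbered pair had correlated residuals: 3 of 18 such pairs had an r over 0.1, over a range of -0.108 to 0.149, against -0.155 to 0.142 for other numbers. Nor did every library correlate best with its own number: DEX 1 h replicate 2 had 0.0588 with DEX 4 h replicate 3. With a replicate block 7 members rose and 10 fell from 1 h to 2 h, 2 rose and 6 fell from 2 h to 4 h, and 10 rose and 15 fell from 1 h to 4 h, while 55, 56 and 56 were lower than the control. Depth limits members near the CPM floor, of which scpl18, SBT1.3 and KDR have few counts.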
